A study of Mus musculus with 18 samples.

Results

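The interferon regulatory factors are a family of transcription factors, and 8 of their genes (*Irf1*, *Irf2*, *Irf3*, *Irf4*, *Irf5*, *Irf7*, *Irf8* and *Irf9*) were followed here by gene symbol among the 45706 genes listed for each library. All 8 symbols matched a single Ensembl gene and all 8 passed the filter on low counts, which 12255 genes passed. RNA-seq was done on 18 libraries of OT-I cells, which are CD8+ T cells with a transgenic receptor for an ovalbumin peptide. The cells were purified from spleens by negative selection and cultured in vitro. Single peptide stimulated cells met the peptide at the start of the culture and were then washed and rested. Repeat peptide stimulated cells, the model of exhaustion, met it daily and kept it until harvest. From day 5 to day 8 both received 1 µM ibrutinib, a kinase inhibitor that binds BTK and other TEC family kinases, or its solvent DMSO. This gave 4 libraries of repeat peptide with DMSO, 5 of repeat peptide with ibrutinib, 5 of single peptide with DMSO and 4 of single peptide with ibrutinib. All groups shared the OT-I receptor and the strain label of wild type OT-1 mice. The genotype entry of the labels, here lettered A to F, contains the words btk KO in B to E. It was taken as the name of an experiment, because the methods of the RNA-seq mention no btk deficient cells. Experiments A to D each gave 4 libraries, one per group. The only library of E was repeat peptide with ibrutinib, and that of F was single peptide with DMSO. Total expected counts ran from 23445922 to 51995372 per library (median 27420966). Markers of CD8+ T cells summed to 3371 to 4871 TPM in every library, TPM being the transcript level that the authors scaled for gene length and depth.

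IRF proteins share a DNA-binding domain that recognizes GAAA repeats, as in the interferon-stimulated response element. IRF3 and IRF7 are activated by kinases downstream of nucleic acid sensors and switch on interferon genes. IRF9 is a DNA-binding subunit of the ISGF3 complex that forms after type I interferon, IRF1 is induced by interferon gamma, and IRF2 binds the sites of IRF1 mainly as a repressor. In T cells IRF4 is induced in proportion to T cell receptor signal and binds DNA together with BATF and JUN. IRF8 is best known from myeloid cells, dendritic cells and B cells and is also induced in activated CD8+ T cells. IRF5 is known from Toll-like receptor signalling in myeloid cells.

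The promoters of *Irf1*, *Irf4* and *Irf8* are shown because the results below turn on these genes. Each is the stretch of 250 bases before the RefSeq transcript start on GRCm38.p6, written 5′ to 3′ on the gene's strand, with matches to a motif in capitals.
Irf1 promoter (chr11:53769764-53770013, + strand): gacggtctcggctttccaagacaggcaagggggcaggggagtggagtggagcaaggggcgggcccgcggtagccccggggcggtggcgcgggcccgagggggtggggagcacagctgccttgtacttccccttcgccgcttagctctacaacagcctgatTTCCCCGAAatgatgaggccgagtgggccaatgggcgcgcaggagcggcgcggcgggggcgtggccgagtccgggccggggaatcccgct
Irf4 promoter (chr13:30748983-30749232, + strand): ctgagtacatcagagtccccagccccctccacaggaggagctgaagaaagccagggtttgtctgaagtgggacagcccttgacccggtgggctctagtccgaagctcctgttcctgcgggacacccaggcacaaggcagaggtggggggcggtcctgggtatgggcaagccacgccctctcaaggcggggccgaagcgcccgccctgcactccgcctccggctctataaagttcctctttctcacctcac
Irf8 promoter (chr8:120736108-120736357, + strand): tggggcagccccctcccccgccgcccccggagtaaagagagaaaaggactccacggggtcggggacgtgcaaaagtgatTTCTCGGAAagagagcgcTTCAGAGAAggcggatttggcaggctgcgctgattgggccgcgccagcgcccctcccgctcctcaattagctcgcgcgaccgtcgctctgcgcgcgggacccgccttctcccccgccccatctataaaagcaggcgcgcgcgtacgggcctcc
The search covered both strands of the whole RefSeq windows, of which the stretches shown leave out the 50 bases after the start. It looked for an interferon-stimulated response element core (GAAANNGAA), a STAT site (GAS, TTCNNNGAA), an AP-1 site (TGANTCA) and a kappaB site (GGGANTTTC). The capitals mark GAS matches, TTCCCCGAA in *Irf1* and both TTCTCGGAA and TTCAGAGAA in *Irf8*. The *Irf1* match begins 90 bases before the start, and those of *Irf8* begin 171 and 153 bases before it. The *Irf4* window held none of the 4 motifs. Among the other members, only *Irf2* had matches, the response element core GAAAATGAA and the GAS match TTCCGAGAA. The transcript starts of the *Irf9* windows lay 414 and 1008 bases from its annotated gene start. *Irf1* and *Irf8* each had a further window, 459 and 2281 bases from the annotated start, without a match. Of the 32851 RefSeq windows of the mouse, 8.56% held the response element core, 8.3% GAS, 7.81% AP-1 and 1.11% kappaB. Such matches describe the letters of a window and not the binding of a factor.

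The genes were compared between groups by edgeR's quasi-likelihood test on rounded expected counts with Benjamini-Hochberg adjustment over the 12255 genes. A gene was called at an adjusted p under 0.05, an absolute log2 fold change above 0.2 and a mean normalised count (the count scaled to the mean effective library size) of 50 or more. With ibrutinib in repeat peptide cells 5 of the 8 members were called, 1 higher and 4 lower, while 5.92% of all genes tested were called (4.01% higher and 1.92% lower). With ibrutinib in single peptide cells 4 members were called, all lower, against 3.04% of all genes (0.351% higher and 2.69% lower). Between repeat and single peptide with DMSO 7 members were called, 3 higher and 4 lower, in a comparison that called 47% of all genes (22.8% higher and 24.2% lower). With ibrutinib in both groups it was 5 members, 3 higher and 2 lower, against 38.4% of all genes (18.7% higher and 19.6% lower). The difference between the ibrutinib effects, repeat minus single, was called for 2 members, both positive, against 1.26% of all genes (1.04% positive and 0.212% negative). Normalised counts of the groups did not overlap for 5, 4, 7 and 3 members in the first 4 of these comparisons, against 10.1%, 6.39%, 41.4% and 34.3% of all genes. A lower count in such bulk libraries can come from fewer cells with the transcript or from less of it per cell, and these cannot be told apart.

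**Figure D1:**
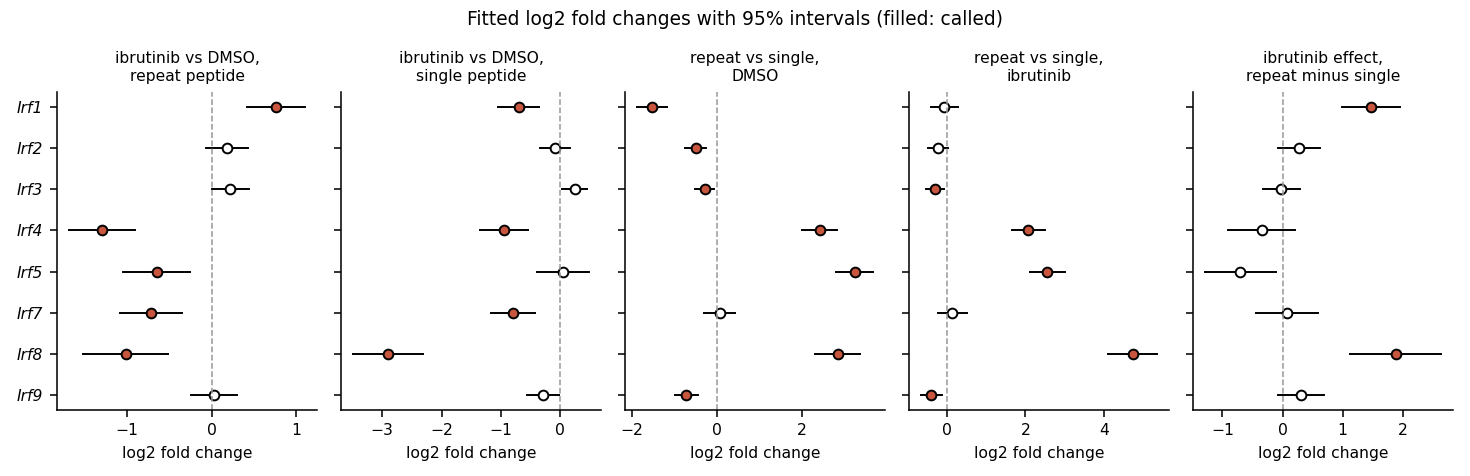
Fitted log2 fold change (horizontal axis) of each of the 8 genes in 5 comparisons, with lines for the 95% interval and filled points for genes called by edgeR. *Irf1* lies above 0 with ibrutinib in repeat peptide cells (0.77) and below 0 in single peptide cells (-0.70), while *Irf8* lies below 0 in both.

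*Irf4*, *Irf8* and *Irf5* were the members with higher transcript in repeat than in single peptide cells. With DMSO the mean *Irf4* level was 48.9 ± 9.64 TPM (SD, n = 4) under repeat and 8.21 ± 2.08 TPM (SD, n = 5) under single peptide. *Irf8* stood at 63.1 ± 10.3 TPM (SD, n = 4) against 7.89 ± 3.18 TPM (SD, n = 5). *Irf5* stood at 18.2 ± 3.21 TPM (SD, n = 4) against 1.67 ± 0.37 TPM (SD, n = 5). The fitted log2 fold changes of repeat over single were 2.42 for *Irf4* (SE 0.192, edgeR adjusted p = 1.46e-08), 2.85 for *Irf8* (SE 0.249, edgeR adjusted p = 4.9e-08) and 3.26 for *Irf5* (SE 0.208, edgeR adjusted p = 1.26e-09). All 3 were higher with repeat peptide in 4 of 4 experiments.

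*Irf4* (ENSMUSG00000021356, chr13:30749226-30766976, plus strand, GRCm38) had normalised counts of 5012, 4017, 5498 and 6244 in the repeat DMSO libraries A to D. With ibrutinib they were 1972, 2268, 2346 and 2629 in A to D and 1301 in E, so that no treated library reached an untreated one. The single peptide counts were 1154, 1101, 874.3 and 869.2 in A to D and 844.8 in F with DMSO. With ibrutinib they were 425.7, 662.2, 521.2 and 390.3 in A to D. All 9 single peptide libraries lay below all 9 repeat peptide libraries. The fall in single peptide cells was 0.95 on the log2 scale (95% interval of the log2 fold change -1.36 to -0.55, edgeR adjusted p = 0.0107). It was seen in 4 of 4 experiments, from -0.73 in B to -1.44 in A. The fall in repeat peptide cells had a log2 fold change of -1.30 (95% interval -1.69 to -0.91). The ibrutinib effects did not pass the test of their difference (log2 -0.35, 95% interval -0.91 to 0.21, edgeR adjusted p = 0.717). Between the ibrutinib groups *Irf4* was 4.21-fold higher in repeat than in single peptide cells (edgeR adjusted p = 3.06e-07). The single peptide call was lost without the ibrutinib library of A (edgeR adjusted p = 0.0562) or of D (0.0524), and by limma on log2(TPM + 1) (0.121).

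*Irf8* (ENSMUSG00000041515, chr8:120736358-120756694, plus strand) is the gene whose promoter above holds the pair of GAS matches. Its normalised counts were 3348, 3177, 4018 and 4542 in repeat DMSO libraries A to D. They were 1364, 1461, 2230 and 2097 in A to D and 2141 in E with ibrutinib. Single peptide libraries with DMSO had 591.6, 261.8, 671.7 and 398 in A to D and 700.4 in F. With ibrutinib they fell to 78.69, 48.71, 91.81 and 59.57, from 52 to 99 expected counts per library. The 4 groups did not overlap at all, in the order repeat DMSO, repeat ibrutinib, single DMSO and single ibrutinib. The fitted change in single peptide cells was -2.91 (log2, SE 0.282, edgeR adjusted p = 5.03e-05), or 7.5-fold lower, and *Irf8* ranked 1 by p-value among the 12255 genes. It was -1.02 in repeat peptide cells (log2, SE 0.238, edgeR adjusted p = 0.0137), or 2.03-fold lower. The difference between these effects was itself called at 1.89 (log2, SE 0.362, edgeR adjusted p = 0.0106). Within experiments A to D the change ran from -2.90 to -2.40 in single and from -1.29 to -0.85 in repeat peptide cells. The gap between repeat and single peptide cells was larger with ibrutinib, 26.6-fold, than with DMSO, 7.2-fold. Without the repeat DMSO library of D the call in repeat peptide cells was lost (edgeR adjusted p = 0.0655). By limma on log2(TPM + 1) the difference was 0.96 and was not called (adjusted p = 0.295). The mean level in single peptide cells with ibrutinib, 1.03 TPM, is close to that pseudocount of 1. The effective length of *Irf8*, which enters its TPM, ran from 1767.9 to 2509.75 bases between libraries. Single ibrutinib libraries B and C had 1.08 and 1.06 TPM at normalised counts of 48.71 and 91.81.

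*Irf5* (ENSMUSG00000029771, chr6:29526625-29541871, plus strand) had normalised counts of 685.1, 685.1, 842.3 and 847.4 in repeat DMSO libraries A to D. With ibrutinib they were 454.8, 460.7, 597.5 and 537.4 in A to D and 382 in E, again without overlap. The fitted change was -0.65 (log2, SE 0.192, edgeR adjusted p = 0.0484), close to the threshold. The call was lost without any single one of 8 of the 9 libraries of the comparison, all but the ibrutinib library of C (edgeR adjusted p from 0.0518 to 0.165 in these 8). It was also lost without the filter on low counts (0.0757) and with all gene types (0.0534). An offset for effective length (0.0865) and limma on log2(TPM + 1) (0.0798) ended it too. Single peptide counts ran from 55.86 to 102.8 with DMSO and from 54.43 to 99.23 with ibrutinib, and the log2 fold change was 0.05 (95% interval -0.39 to 0.49). The difference between the effects was -0.70 (log2) at an unadjusted p of 0.023 and an edgeR adjusted p of 0.318. Between the ibrutinib groups *Irf5* was 5.87-fold higher in repeat peptide cells (edgeR adjusted p = 5.86e-08).

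**Figure D2:**
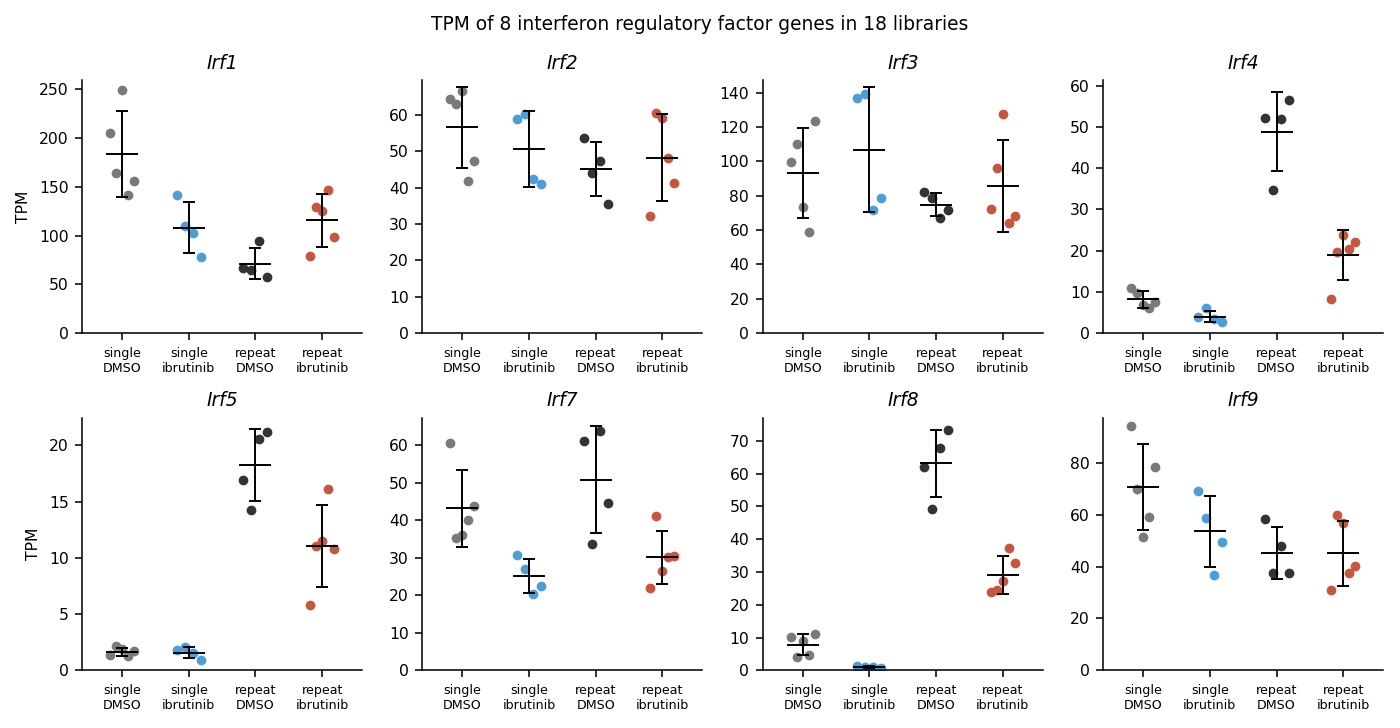
TPM (vertical axis, from 0) of each of the 8 genes in the 18 libraries by group, with a point per library and bars for the mean and SD. *Irf4*, *Irf5* and *Irf8* sit at 34.8 to 56.6, 14.3 to 21.1 and 49.3 to 73.3 TPM in repeat DMSO libraries and at most 11.0, 2.15 and 11.1 TPM in single DMSO libraries.

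These 3 genes are also expressed by B cells, plasma cells or myeloid cells, so markers of those cells were read in the same libraries. The 7 B cell markers summed to 1.44 to 8.07 TPM over all libraries, and *Ms4a1*, *Cd79a* and *Pax5* had at most 7 expected counts in a library. The 10 myeloid and dendritic cell markers summed to 3.93 to 7.25 TPM with repeat DMSO, 4.69 to 10.96 with repeat ibrutinib, 1.45 to 9.35 with single DMSO and 0.92 to 6.6 with single ibrutinib. *Csf1r*, *Adgre1*, *Siglech* and *Xcr1* were at or near 0 in every library, with at most 7 expected counts. Some other markers of these lists had higher means in repeat peptide cells. *Cd14*, a monocyte receptor, had means of 1.94 TPM with repeat DMSO, 0.578 with repeat ibrutinib, 0.008 with single DMSO and 0.0075 with single ibrutinib. *Ebf1*, a B cell transcription factor, had means of 0.632, 0.12, 0.052 and 0.02 TPM in that order of groups, with up to 106 expected counts. *Cd68*, a macrophage marker, had means of 3.37, 4.72, 1.73 and 0.97 TPM. The plasma cell list moved with *Irf4*. Its sum was 16.17 to 20.79 TPM with repeat DMSO, 4.83 to 8.69 with repeat ibrutinib, 0.87 to 7.2 with single DMSO and 1.76 to 6.25 with single ibrutinib. That rise lay in *Sdc1* (mean 13.8 TPM with repeat DMSO), whereas *Mzb1* had at most 6 expected counts. The CD4+ T cell list was highest with repeat DMSO too, at 15.37 to 20.84 TPM, through *Zbtb7b*, with *Cd4* at no more than 2 expected counts anywhere. The 2 NK cell markers summed to 2.64 to 11.36 TPM with repeat DMSO, up to 25.59 with repeat ibrutinib and at most 2.73 in single peptide libraries. The part of these markers' cells in the member levels was not tested.

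*Irf1* changed in opposite directions with ibrutinib in the 2 kinds of culture. *Irf1* (ENSMUSG00000018899, chr11:53770014-53778374, plus strand) had normalised counts of 2432, 2848, 3579 and 2430 in repeat DMSO libraries A to D. With ibrutinib they were 4927, 4482, 5870 and 4426 in A to D and 4331 in E, all above the untreated libraries. Single peptide libraries with DMSO had 8305, 7076, 11450 and 7466 in A to D and 6762 in F. With ibrutinib they were 6073, 4617, 5462 and 4049 in A to D, all below the DMSO libraries. The fitted change was 0.77 (log2, SE 0.164, edgeR adjusted p = 0.00799) in repeat and -0.70 (log2, SE 0.163, edgeR adjusted p = 0.0236) in single peptide cells. Each direction was seen in 4 of 4 experiments. The difference was 1.47 (log2, 95% interval 0.98 to 1.95, edgeR adjusted p = 0.00213), and its call held without any single one of the 18 libraries. With DMSO *Irf1* was 2.91-fold lower in repeat than in single peptide cells (edgeR adjusted p = 6.82e-07). Between the ibrutinib groups it differed by a log2 fold change of -0.07 (95% interval -0.41 to 0.27, edgeR adjusted p = 0.749). In TPM, library E of repeat ibrutinib (78.8) fell below library C of repeat DMSO (94.4), and by limma on log2(TPM + 1) neither change with ibrutinib was called (adjusted p = 0.0726 in repeat and 0.0855 in single). The single peptide call was also lost in a fit of only the compared groups (0.0645). It was lost as well without the DMSO library of C (0.0645) or the ibrutinib library of B (0.0741) or D (0.0874).

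**Figure D3:**
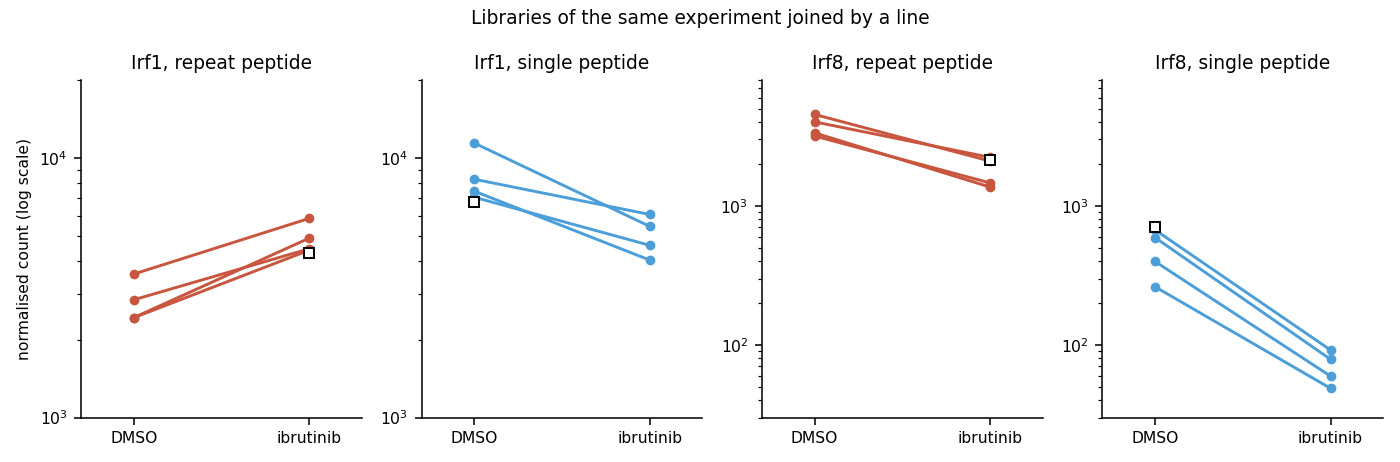
Normalised counts (vertical axis, log scale) of *Irf1* and *Irf8* with DMSO and ibrutinib, where a line joins the libraries of 1 experiment and open squares are libraries of experiments E and F without a partner. All 4 lines of *Irf1* rise in repeat and fall in single peptide cells, and all 8 lines of *Irf8* fall.

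*Irf2* (ENSMUSG00000031627, chr8:46739732-46847458, plus strand) was 1.42-fold lower in repeat than in single peptide cells with DMSO (edgeR adjusted p = 0.00167). It was not called with ibrutinib in repeat (log2 0.18, 95% interval -0.07 to 0.43) or single peptide cells (log2 -0.09, 95% interval -0.34 to 0.16). Its normalised counts over the 18 libraries ran only from 1921 to 4180. Between repeat and single peptide with ibrutinib the change of -0.23 was not called (edgeR adjusted p = 0.123), but with the experiment as a block it was (-0.21, adjusted p = 0.0367). By limma on log2(TPM + 1) the DMSO difference was not called (adjusted p = 0.221). The log2 ratio of *Irf1* to *Irf2* TPM, the activator over the repressor, was 0.65 ± 0.28 (SD, n = 4) with repeat DMSO and 1.26 ± 0.21 (SD, n = 5) with repeat ibrutinib. It was 1.69 ± 0.19 (SD, n = 5) with single DMSO and 1.08 ± 0.21 (SD, n = 4) with single ibrutinib. The differences of 0.62 and -0.61 with ibrutinib each had a two-sided exact permutation p of 0.0159 (0.0212 adjusted over 8 tests), the smallest that groups of 4 and 5 allow. Repeat and single peptide cells differed by -1.04 with DMSO (same exact p) and by 0.18 with ibrutinib (exact permutation p = 0.238). The permutations treated libraries as unpaired, although experiments A to D gave libraries to every group.

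*Irf7* was lower with ibrutinib in both kinds of culture and was not called between them. *Irf7* (ENSMUSG00000025498, chr7:141262706-141266481, minus strand) had normalised counts of 1915, 1242, 2228 and 1630 in repeat DMSO libraries A to D. With ibrutinib they were 1207, 794, 1081 and 1233 in A to D and 1009 in E, and the highest of these lies just below the lowest DMSO library. Single peptide libraries had 2106, 1267, 1582 and 1950 in A to D and 1493 in F with DMSO, and with ibrutinib they had 1091, 878.6, 838.3 and 1074. The log2 fold changes were -0.72 (SE 0.174, edgeR adjusted p = 0.0165) in repeat and -0.79 (SE 0.177, edgeR adjusted p = 0.0189) in single peptide cells, down in 4 of 4 experiments each. The difference between them was 0.07 (95% interval -0.45 to 0.59). Repeat and single peptide cells differed by 0.06 with DMSO (log2, 95% interval -0.30 to 0.43) and by 0.13 with ibrutinib (95% interval -0.23 to 0.50). The repeat call was lost without the DMSO library of C (edgeR adjusted p = 0.0893) and the single call without the ibrutinib library of B (0.0622). Neither was called by limma on log2(TPM + 1) (adjusted p = 0.0612 and 0.0985).

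*Irf3* (ENSMUSG00000003184, chr7:44997648-45002848, plus strand), a factor present in resting cells, was not called with ibrutinib. Its normalised counts ran from 1904 to 2271 with repeat DMSO, 2022 to 3047 with repeat ibrutinib, 2399 to 2793 with single DMSO and 2754 to 3367 with single ibrutinib. With ibrutinib its log2 fold change was 0.22 in repeat (edgeR adjusted p = 0.231) and 0.24 in single peptide cells (edgeR adjusted p = 0.305). With the experiment as a block the second was called (0.27, adjusted p = 0.0314). *Irf3* was lower in repeat than in single peptide cells with DMSO (log2 -0.29, edgeR adjusted p = 0.027) and with ibrutinib (log2 -0.31, edgeR adjusted p = 0.0238). The DMSO call was lost without repeat DMSO library A or C or single DMSO library B or F (edgeR adjusted p from 0.0626 to 0.0884). The ibrutinib call was lost without repeat library A, B, C or D or single library A or D (edgeR adjusted p from 0.0596 to 0.153) and in a fit of only these groups (0.091). Neither was called by limma on log2(TPM + 1) (adjusted p = 0.402 and 0.407). The effective length that the authors' tool gave *Irf3* ran from 817.61 to 1260.88 bases between libraries, and this length enters its TPM. *Irf2*, whose effective length ran only from 2077.27 to 2145.58 bases, also spread more in TPM than in counts. With single ibrutinib *Irf2* stood at 50.7 ± 10.4 TPM and 3103 ± 153 normalised counts (SD, n = 4). The cause of the wider spread in TPM was not tested.

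*Irf9* (ENSMUSG00000002325, chr14:55603571-55610030, plus strand) was lower in repeat than in single peptide cells, by 0.72 on the log2 scale with DMSO (log2 -0.72, edgeR adjusted p = 0.000171). With ibrutinib the difference was -0.40 (edgeR adjusted p = 0.0168). Its normalised counts were 1921 to 2725 with repeat DMSO, 1970 to 2631 with repeat ibrutinib, 2912 to 4209 with single DMSO and 2472 to 3459 with single ibrutinib. With ibrutinib its change was 0.03 in repeat (95% interval -0.25 to 0.30) and -0.29 in single peptide cells (95% interval -0.56 to -0.02, edgeR adjusted p = 0.325). The call between ibrutinib groups was lost without single library A (edgeR adjusted p = 0.0945) or D (0.0642) and by limma on log2(TPM + 1) (0.453). *Irf9* shares 123 exonic bases with *Rnf31* on the same strand, and the authors' counting could split reads there. The whole span of *Irf8* lies within that of *Gm20388* on the same strand, and the genes share 0 exonic bases. *Irf1*, *Irf3*, *Irf5* and *Irf7* share 45 to 411 exonic bases with genes of the other strand. The library kit keeps the strand, but the strand setting of the counting is not given in the sources used here. The expected counts of all 8 members were whole numbers in all 18 libraries.

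The order of the levels, which can be compared between genes in TPM, differed between the groups. With single DMSO the highest was *Irf1* at 183 ± 43.9 TPM (SD, n = 5), above the range of *Irf3* (93.2), followed by *Irf9* (70.6), *Irf2* (56.6) and *Irf7* (43.2), whose neighbouring ranges overlapped. *Irf4* and *Irf8* overlapped near 8 TPM, and *Irf5* was lowest. With repeat DMSO *Irf3* (74.8), *Irf1* (71.1), *Irf8* (63.1), *Irf7* (50.8), *Irf4* (48.9), *Irf9* (45.2) and *Irf2* (45.1) each overlapped with the next, and only *Irf5* (18.2) stood apart. With repeat ibrutinib *Irf1* (116) and *Irf3* (85.6) lay above the range of *Irf2* (48.3), and *Irf8* (29.1) lay above *Irf4* (18.9) in 5 of 5 libraries. With single ibrutinib *Irf8* was last, at 1.03 ± 0.21 TPM (SD, n = 4), below *Irf5* in 4 of 4 libraries although their ranges overlapped.

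**Figure D4:**
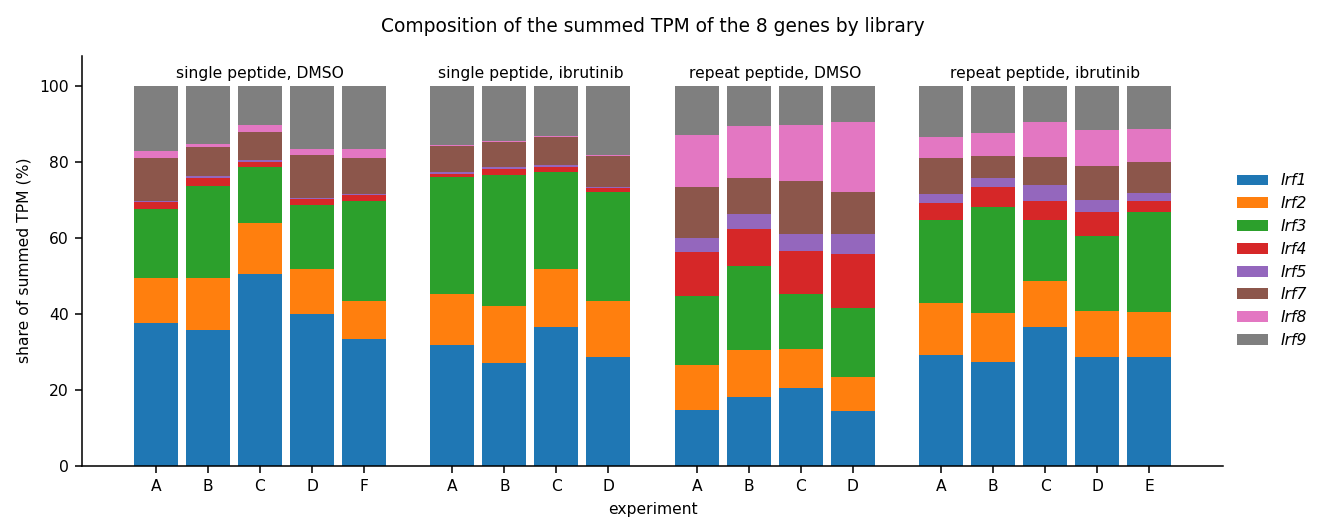
Share (vertical axis, percent) of each of the 8 genes in their summed TPM, with a bar per library. *Irf4*, *Irf5* and *Irf8* together take more of the bars with repeat DMSO than in the other groups, and the mean *Irf4* share was 11.7% and the mean *Irf8* share 15.2% there.

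The summed TPM of the 8 genes was 417 ± 49.1 with repeat DMSO (SD, n = 4), 384 ± 75.6 with repeat ibrutinib (SD, n = 5), 465 ± 70.5 with single DMSO (SD, n = 5) and 350 ± 86.4 with single ibrutinib (SD, n = 4). The ranges of these sums overlapped between all 4 groups, as in single DMSO (354.1 to 546.4) and single ibrutinib (274.8 to 444.3). Differences between the sums were not tested. The makeup of the sum differed. *Irf1* took 17% of it with repeat DMSO, 30.1% with repeat ibrutinib, 39.4% with single DMSO and 31% with single ibrutinib. *Irf4* took 11.7% ± 1.87 (SD, n = 4) with repeat DMSO and 4.84% ± 1.23 (SD, n = 5) with repeat ibrutinib. It took 1.76% ± 0.31 (SD, n = 5) with single DMSO and 1.14% ± 0.28 (SD, n = 4) with single ibrutinib. The 3 comparisons that involve repeat peptide cells had a two-sided exact permutation p of 0.0159, and 0.0212 after adjustment, again with libraries treated as unpaired. The one in single peptide cells had an exact permutation p of 0.0317 (0.0363 adjusted). This last was no longer under 0.05 without single DMSO library A, B, D or F (0.0653 adjusted) or single ibrutinib library A, C or D (0.0816), each time with fewer libraries to permute. *Irf8* took 15.2%, 7.8%, 1.67% and 0.297% in the same order of groups. The mean log2 ratio of *Irf4* to *Irf8* TPM was -0.38 with repeat DMSO, -0.69 with repeat ibrutinib, 0.13 with single DMSO and 1.92 with single ibrutinib.

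Genes around the family were read from lists in order of the pathway. The median log2 fold change of all 12255 genes lay between -0.018 and 0.018 in the 5 comparisons. Of all genes, 5.92% and 3.04% were called with ibrutinib in repeat and single peptide cells. Between repeat and single peptide 47% were called with DMSO and 38.4% with ibrutinib, and 1.26% in the difference of the effects. With the experiment as a block these shares were 13.8%, 9.09%, 53.6%, 48.6% and 5.54%. Upstream, 1 of 9 interferon genes passed the low-count filter. This was *Ifng*, encoding interferon gamma, at 36.5 ± 15.5 TPM (SD, n = 4) with repeat DMSO and 9.35 ± 2.7 TPM (SD, n = 5) with repeat ibrutinib. It stood at 2.05 ± 1.60 TPM (SD, n = 5) with single DMSO and 0.297 ± 0.212 TPM (SD, n = 4) with single ibrutinib. It fell with ibrutinib in repeat (log2 -1.78, edgeR adjusted p = 0.036) and in single peptide cells (log2 -2.51, edgeR adjusted p = 0.0494), calls that were lost without the low-count filter. *Ifnb1* had at most 1 expected count in a library.

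Of 10 tested interferon receptor, Janus kinase and STAT genes, 9 were lower in repeat than in single peptide cells with DMSO (median -0.72). Of all genes 24.2% were called lower in that comparison. The 9 included *Ifngr2* (-2.46), the signalling chain of the interferon gamma receptor, *Ifnar2* (-1.06), a chain of the type I receptor, and *Jak1* (-0.97), a kinase that both receptors use. With ibrutinib in repeat peptide cells 2 rose, *Ifngr2* by 1.15 and *Ifnar2* by 0.60 (log2, median of the list 0.32), and with the experiment as a block 7 were called.

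Of 16 tested sensors and kinases upstream of IRF3 and IRF7, 3 were higher and 10 lower in repeat than in single peptide cells with DMSO. The list's median was -0.34, and 47% of all genes were called. The genes called included *Ikbke* (-1.31), a kinase that activates both factors, and *Zbp1* (-0.99), a nucleic acid sensor, as lower. *Dhx58* (0.74) and *Ifih1* (0.71), RNA sensors, were higher. With ibrutinib in repeat peptide cells *Tlr7* (-1.32) and *Dhx58* (-0.62) fell and *Ikbke* (0.54) rose, at a list median of 0.07. *Zbp1* (-0.76) fell in single peptide cells, at a median of -0.10. With the block 5 genes were called in each kind of culture. The difference of the ibrutinib effects was called for *Zbp1* (1.22). With ibrutinib in both groups 3 were higher and 5 lower in repeat peptide cells (median -0.17), against 38.4% of all genes called. Without the low-count filter it was 5 in all, against 19.9% of all genes. The genes called with the filter included *Ifih1* (0.85), *Cgas* (0.77), a DNA sensor, and *Ikbke* (-0.84).

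Of the partners that bind DNA with IRF4 and IRF8, 6 were tested, and *Spi1*, *Spib* and *Batf2* had too few counts. With DMSO 2 were higher and 1 lower in repeat than in single peptide cells, against 47% of all genes called. *Batf3* stood at 33.36 to 104.98 TPM with repeat DMSO, 0.94 to 32.91 with repeat ibrutinib and 0 to 0.28 with single DMSO, where no library had more than 2 expected counts. *Jun* was lower in repeat than in single peptide cells with DMSO (-2.21) and rose with ibrutinib in repeat peptide cells (1.32, edgeR adjusted p = 0.0147), the list's only call there. With the block 2 partners were called there, and 2 in the difference of the effects where the fit without it called 0. *Jund* was higher with repeat DMSO (0.42). Of the 3 corepressors that bind IRF2, *Irf2bp1* was lower with repeat peptide in DMSO (-0.60) and in ibrutinib (-0.70), and *Irf2bpl* in ibrutinib (-0.66). None of the 3 was called with ibrutinib against DMSO, and with the block 1 was in single peptide cells and 2 were between the DMSO groups.

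**Figure D5:**
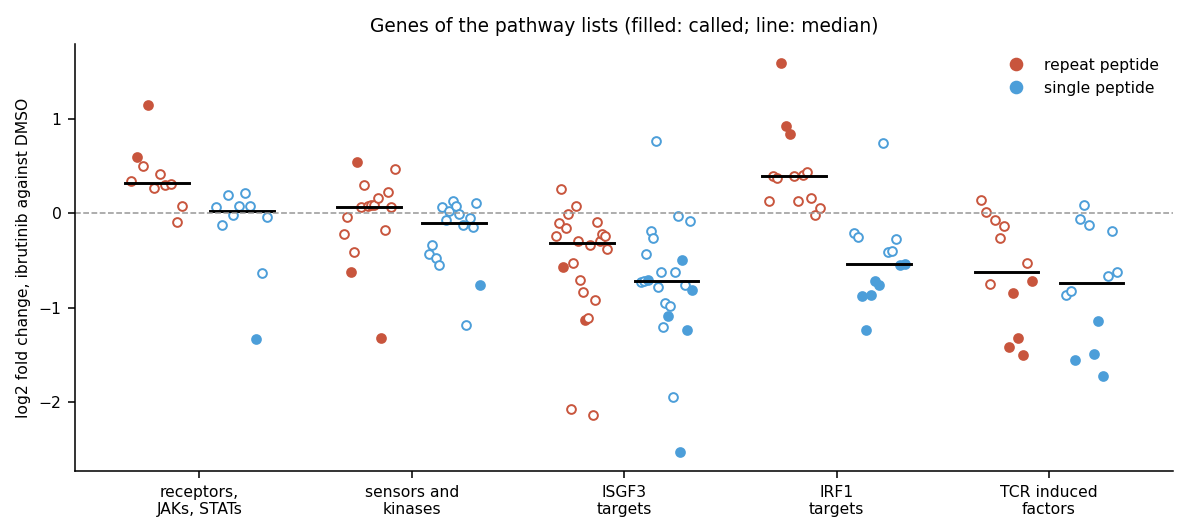
Log2 fold change (vertical axis) with ibrutinib against DMSO of each tested gene of 5 lists, in repeat and single peptide cells, with filled points for genes called and a line at the list's median. The IRF1 target genes have a median of 0.39 in repeat and -0.54 in single peptide cells.

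Among 13 genes known as IRF1 targets, 3 were called higher and 0 lower with ibrutinib in repeat peptide cells, with a median of 0.39. They were the guanylate binding proteins *Gbp2* (1.59, edgeR adjusted p = 0.000376), *Gbp3* (0.92) and *Gbp4* (0.84). Under single peptide 0 were higher and 7 lower, with a median of -0.54, led by *Gbp2* (-1.24, edgeR adjusted p = 0.00655), *Cd274* (-0.88), which encodes PD-L1, *Gbp3* (-0.86) and *Gbp5* (-0.76). The difference of the effects was called for 6 of 13, all positive (median 0.82), with *Gbp2* at 2.82, *Gbp3* at 1.79, *Gbp4* at 1.56 and *Cd274* at 1.25. With the block 7 were called in repeat peptide cells and 10 in the difference, against 13.8% and 5.54% of all genes. With DMSO 8 of 13 were lower in repeat than in single peptide cells (median -0.59), against 24.2% of all genes. With ibrutinib in both groups 7 were higher (median 0.47), against 18.7% of all genes. These 7 included *Gbp2* (0.93) and *Casp1* (0.75), the inflammasome protease.

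Of 22 tested targets of ISGF3, the complex that holds IRF9, 2 fell with ibrutinib in repeat peptide cells (median -0.32), *Oas1a* (-1.13) and *Eif2ak2* (-0.57), sensors of double-stranded RNA. Under single peptide 6 fell (median -0.72), among them *Oasl2* (-2.53), *Rtp4* (-1.24), *Mx1* (-1.09) and *Xaf1* (-0.82), and 12 were called by DESeq2's Wald test. With the block the counts were 6 and 14. Between repeat and single peptide with DMSO 2 were higher and 4 lower (median -0.16), a smaller share than the 47% of all genes called. *Mx1* (1.54) was higher and *Rtp4* (-1.03), *Ifit3* (-0.94) and *Dtx3l* (-0.94) lower. With the block 10 of the 22 were called, against 53.6% of all genes. With ibrutinib in both groups 3 were higher (median 0.24), *Mx1* (1.79), *Eif2ak2* (0.64) and *Ifit2* (0.58), against 38.4% of all genes called. With the block 5 were called, against 48.6% of all genes. The edgeR test called 0 of the 22 in the difference of the effects (median 0.34), DESeq2's Wald test 1 and the block 5. Of 9 feedback genes, *Socs3* (1.35) rose and *Usp18* (-1.41) and *Ptpn6* (-0.48) fell with ibrutinib in repeat peptide cells (median 0.012). *Ptpn6* (-0.68) fell in single peptide cells (median -0.19). With DMSO 2 were higher and 4 lower in repeat peptide cells, against 47% of all genes called, with *Socs3* lowest at -2.67. The difference of the effects was called for 0 of 9 by edgeR and for 3 with the block, against 1.26% and 5.54% of all genes.

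The 12 transcription factors induced by the T cell receptor were listed because *Irf4* shares that input. With DMSO 11 were higher and 1 lower in repeat than in single peptide cells (median 2.50), led by *Nr4a2* (4.27), *Nr4a3* (3.63), *Nr4a1* (3.51) and *Egr3* (3.24). In that comparison 47% of all genes were called. With ibrutinib in repeat peptide cells 5 fell (median -0.62), among them *Prdm1* (-1.50), *Nr4a1* (-1.42), *Nr4a3* (-1.32) and *Nr4a2* (-0.84). Under single peptide 4 fell (median -0.74), *Nr4a3* (-1.73), *Egr3* (-1.56), *Nr4a1* (-1.50) and *Nr4a2* (-1.14). With ibrutinib in both groups 10 were higher and 1 lower in repeat peptide cells (median 2.65), against 38.4% of all genes called.

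For each member the genes with the most similar log2 CPM over the 18 libraries were found. These libraries share groups and experiments, so the Pearson r describes them and is given with the r of deviations from group means. *Irf8* was most like *Tnfrsf9* (r = 0.977, within groups 0.747), the costimulatory receptor 4-1BB, then *Tnfsf14* (0.973, within 0.548) and *Nr4a3* (0.972, within 0.681). *Irf4* was most like *Eea1* (0.985, within 0.816), *Myh10* (0.984, within 0.907) and *Cobll1* (0.983, within 0.74). *Irf5* was most like *Abhd4* (0.991, within 0.742), *C77080* (0.987, within 0.642) and *Spry2* (0.986, within 0.668). *Irf7* was most like the antiviral genes *Oas2* (0.872, within 0.749), *Parp9* (0.847, within 0.904) and *Oas1a* (0.844, within 0.65). *Irf1* was most like *Gsdmd* (0.934, within 0.657), *Jun* (0.905, within 0.741) and *Osm* (0.9, within 0.354). *Irf9* was most like *Cd163l1* (0.937, within 0.838), *Slc22a5* (0.926, within 0.833) and *Ddx58* (0.924, within 0.738). *Irf2* was most like *Rfx2* (0.871, within 0.664), *Pdcd4* (0.871, within 0.699) and *Spata13* (0.869, within 0.752). *Irf3* was most like *B3galt4* (0.932, within 0.87), *Trp53rka* (0.927, within 0.788) and *Ngrn* (0.926, within 0.891). Among the members *Irf4* and *Irf8* had the highest r over the 18 libraries (0.915), while within groups their r was -0.125. For *Irf1* and *Irf2* it was 0.807, and 0.623 within groups.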

How the data were processed

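The 18 RNA-seq libraries fall into 4 groups by the labels. The authors trimmed the reads with Trim Galore, aligned and counted them with RSEM 1.3.1 and STAR on GRCm38, and deposited a table of genes per library. The expected counts deposited there are estimates from reads and were not normalised. The TPM values deposited by the authors are scaled for length and depth. The deposited effective lengths served in an alternative.

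Expected counts were rounded. Of 45706 genes 45143 matched GENCODE M21 by identifier, and the 27903 protein-coding or lncRNA genes (98.46% of counts) entered filterByExpr. The 12255 genes that passed were normalised by TMM and fitted for 4 groups together with glmQLFit (robust) and glmQLFTest (R 4.3.3, edgeR 4.0.16). Shares and ratios of TPM were compared by two-sided exact permutation tests (scipy). These moved libraries freely between the groups compared, and no version that kept experiments together was run. Normalised counts are scaled to the mean effective library size. Alternatives were DESeq2's size factors, no low-count filter, calls without the mean count threshold or with log2 fold changes above 1 in size, all gene types, a length offset, a fit of the compared groups, a block for experiment, DESeq2's Wald test (1.42.0), limma (3.58.1) on log2(TPM + 1), shares of expected counts in place of TPM, and each library left out.

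Libraries of an experiment deviated together: all 24 same-experiment pairs correlated above 0.1, at 0.16 to 0.494 (median 0.325), against a median of -0.0765 for 97 other pairs. The experiment comes from the genotype entry of the labels. The test was without the block, which the study does not name. Libraries of a group carry different genotype entries, which were read here as different experiments. Nothing says that each came from another animal, so p-values measure the spread between these libraries. Total expected counts were 23445922 to 51995372 per library, which sets the counting error of low genes. The test was tested on simulated data with known changes. Those data held no effect of experiment, so they cannot show how the test behaves where libraries deviate together.

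The members, lists and tests were chosen with earlier results of these data known. All members were named. From each list up to 4 called genes of largest change were named, and for each member the 3 genes of highest r. Some genes of the lists are not reported here, and flow cytometry of the study was not analysed here.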

Additional observations from a re-analysis of the deposited data

Results flagged for a closer look

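The change of *Irf1* with ibrutinib differed between repeat and single peptide cells by 1.47 on the log2 scale (repeat minus single) in the edgeR test of the difference, with 4 of 4 experiments up in repeat and 4 of 4 down in single peptide cells. The change of *Irf8* differed by 1.89 (log2), with all 4 experiments down in both and further down in single peptide cells. In the test for a library far from the others, over 40 sets of 4 or 5 libraries (the normalised counts of 8 genes and the 2 quantities made from TPM, in 4 groups), 0 libraries stood apart, where chance would mark about 1 in 20 sets.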

How the results depend on the processing

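With an absolute log2 fold change above 1, the members called were 2 with ibrutinib in repeat and 1 in single peptide cells. Between repeat and single peptide they were 4 with DMSO and 3 with ibrutinib. The shares of all genes called were 1.93%, 1.65%, 16.3% and 11.9% in that order. By limma on log2(TPM + 1) the members called were 2, 1, 5 and 3 in the same order, and 1 in the difference of the effects. Of all genes it called 3.19%, 1.31%, 35.3%, 24.4% and 0.628% there. With each library left out in turn the counts ran from 3 to 5, 2 to 4, 6 to 7 and 3 to 5, and stayed at 2 in the difference. Of all genes 2.86% to 7.14%, 1.06% to 3.19%, 41.0% to 47.9%, 30.3% to 40.2% and 0.68% to 1.4% were then called. With a library left out, the *Irf4* share differed by -0.74 to -0.53 percentage points with ibrutinib in single peptide cells. Taken from expected counts, not divided by length, the share differed by -12.8 with ibrutinib in repeat and -1.46 in single peptide cells, with the calls as before. With the experiment as a block the counts were 5, 5, 7, 6 and 2, against 13.8%, 9.09%, 53.6%, 48.6% and 5.54% of all genes. Beyond *Irf2* and *Irf3* the block changed no member's call. Changes of sign were seen only in members that were not called. With a library left out these were *Irf9* with ibrutinib in repeat (-0.033 to 0.13), *Irf2* (-0.16 to 0.010) and *Irf5* (-0.060 to 0.19) in single peptide cells, *Irf7* between DMSO groups (-0.074 to 0.20), *Irf1* between ibrutinib groups (-0.15 to 0.056), and *Irf3* (-0.11 to 0.068) and *Irf7* (-0.039 to 0.21) in the difference. By limma *Irf9* in repeat (-0.023), *Irf5* in single (-0.057) and *Irf1* between ibrutinib groups (0.10) changed sign. So did *Irf5* in single peptide cells with the length offset (-0.0069), and *Irf3* in the difference with DESeq2's size factors (0.00029), no low-count filter (0.0016) and the length offset (0.014). The cause was not tested. Of the other alternatives' values for the members, 287 of 312 kept their direction and call, and of those with a library left out 384 of 432. The settings without the mean count threshold and with log2 fold changes above 1 in size were left out of the 312. Over all genes, 726 were called with ibrutinib in repeat and 373 in single peptide cells, against 464 and 181 in a fit of only the compared groups, 1694 and 1114 with the block, 1098 and 607 by DESeq2's Wald test and 391 and 161 by limma. The difference was called for 154 genes, 679 with the block, 341 by DESeq2 and 77 by limma. Depth limits single peptide *Irf5* and, with ibrutinib, *Irf8*, at no more than 107 expected counts a library. TPM of the members also depends on their estimated lengths. Between libraries these differed for *Irf3*, *Irf5* (1388.94 to 1842.31 bases), *Irf7* (1160.88 to 1486.19) and *Irf8* (1767.9 to 2509.75), among others.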
